A study of Mus musculus with 24 samples.

Results

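The genes described are 9 transient receptor potential (TRP) channel genes of the mouse, Trpv1, Trpv2, Trpv3, Trpv4, Trpa1, Trpm8, Trpm2, Trpm3 and Trpc1, chosen by name. Each was found under its own symbol among the 22609 genes of every library, which in all hold 28 TRP genes. They were followed in 24 RNA sequencing libraries of dorsal root ganglia (DRG, the ganglia that hold the cell bodies of sensory neurons), hind paw skin and lumbar spinal cord. Male C57 mice of 8 to 12 weeks had received antibody into the hind paw, either an agonist of the lymphotoxin beta receptor (LTβR), a member of the tumour necrosis factor receptor family, or control IgG, at 10 µg per injection.

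DRG were the L3-L5 ganglia and skin was a punch biopsy, both from the injected side. Each of these tissues had 3 groups of 3 libraries. Controls were taken 1 day after IgG, day-1 samples 1 day after 1 agonist injection, and day-6 samples after 2 agonist injections. For spinal cord, 3 libraries of each agonist day were analysed and none after IgG, so cord values compare the agonist days with each other. Day 6 differed from day 1 in injections as well as time, and it had no IgG control of its own. The labels differ on whether the 6 days run from the start or the end of dosing, so the interval is uncertain. The labels do not say whether each library came from a separate mouse, and p-values therefore measure the spread between these libraries, which may be technical.

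TRP channels are cation channels of the cell membrane that open to heat, cold, chemical irritants, lipids or mechanical and osmotic stress. In the DRG they turn such stimuli into depolarization of sensory neurons, and TRPV1 and TRPA1 in nociceptors are known for their part in inflammatory heat pain and irritant pain. In skin, TRPV3 and TRPV4 are known from keratinocytes. In bulk tissue, fewer cells of a type and less RNA per cell cannot be told apart.

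The gene models place the 9 channels on 6 chromosomes, and Trpv1 and Trpv3 are neighbours on chromosome 11 of GRCm38, on the same strand with 6.145 kb between them. Trpv1 spans 73234292 to 73261242 and Trpv3 spans 73267388 to 73300363 on that chromosome. RefSeq promoters of build GRCm38.p6 matched 8 of the 9 genes, all but Trpa1. The 250 bases before an annotated start are shown for Trpv1, the most abundant member in DRG, and for Trpv4, the most abundant in paw skin. Those of Trpv2 are shown because its log2 difference in paw between control and day 6 was the largest among the 6 members tested there. The windows are Trpv1 at chr11:73233899-73234148 (plus strand), Trpv4 at chr5:114658422-114658671 (minus strand) and the first of 3 Trpv2 starts at chr11:62574236-62574485 (plus strand). Capitals mark CCAAT and GGGCGG on either strand.
Trpv1: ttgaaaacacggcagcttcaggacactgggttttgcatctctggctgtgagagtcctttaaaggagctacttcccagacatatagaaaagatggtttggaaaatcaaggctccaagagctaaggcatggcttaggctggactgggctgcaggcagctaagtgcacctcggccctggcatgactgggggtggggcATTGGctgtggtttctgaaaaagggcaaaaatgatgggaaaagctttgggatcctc
Trpv4: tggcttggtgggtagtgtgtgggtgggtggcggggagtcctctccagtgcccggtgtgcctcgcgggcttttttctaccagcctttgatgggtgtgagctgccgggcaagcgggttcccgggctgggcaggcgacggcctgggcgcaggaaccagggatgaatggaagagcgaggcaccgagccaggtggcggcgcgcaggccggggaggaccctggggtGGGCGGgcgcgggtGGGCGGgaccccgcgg
Trpv2: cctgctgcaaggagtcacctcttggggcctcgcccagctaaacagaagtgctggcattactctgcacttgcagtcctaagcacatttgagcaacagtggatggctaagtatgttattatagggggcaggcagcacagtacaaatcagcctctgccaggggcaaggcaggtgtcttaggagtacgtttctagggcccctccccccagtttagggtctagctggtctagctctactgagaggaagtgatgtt
The Trpv4 window held 72% G and C and 22 CpG, against 50.8% and 2 for Trpv1, 53.2% and 2 for Trpv2, and medians of 52.4% and 6 over 32851 promoter windows of the same length. Trpv1 carried CCAAT, read on the opposite strand, a motif found in 33.8% of all windows. Trpv4 carried GGGCGG at 2 places, and 32.7% of all windows held it. TATAAA, present in 12.4% of all windows, was in the windows of Trpm8 and Trpm2 alone among the 8 matched members. The consensus site of NF-κB, held by 3.90% of windows, was found in the window of another Trpv2 start and in no other member's window. These matches are descriptions of sequence, and no binding was measured.

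Libraries held 21562694 to 34244912 counted reads in DRG, 24228438 to 41037458 in paw and 15685843 to 26285770 in spinal cord. Levels are given as CPM (counts scaled to the normalised library size), and 3 counts corresponded to 0.0731 to 0.191 CPM. Markers matched the tissue labels. The sensory neuron sodium channel gene Scn10a was at 642 to 809 CPM in DRG and at most 1.77 CPM elsewhere, the epidermal keratin gene Krt10 at 27743 to 53896 CPM in paw, and the astrocyte gene Gfap at 988 to 1404 CPM in cord. Among reads that were counted, ambiguous or without an annotated feature, those without a feature made up 31.5% in DRG control 1. In the other 8 DRG libraries they made up 13.1 to 13.8%. Skeletal muscle RNA was scarce in paw control 1, where 22 marker genes summed to 316 CPM while the next lowest paw library had 7474 CPM, and its keratinocyte sum was the highest. Relb and Nfkb2, genes of the pathway downstream of LTβR, rose in DRG on day 1 (1.84-fold and 2.89-fold, edgeR adjusted p = 0.0228 and 0.0139). Their differences stayed positive without any single library, but the edgeR calls of both were lost without control 2 (adjusted p = 0.130 and 0.110), day-1 library 1 (0.113 and 0.0705) or day-1 library 2 (0.0827 and 0.0572), that of Relb also without control 3 (0.0582), with a sensory neuron covariate (0.0577) or with only the groups compared (0.109), and that of Nfkb2 without control 1 (0.0648).

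The order of TRP gene levels differed between tissues. CPM values are normalised within a tissue, and levels of different genes are compared as CPM per kb of exon. In DRG the order of the levels was Trpv1 at 40.5 ± 8.70 CPM per kb (SD, n = 9 libraries), Trpv2 at 26.4 ± 1.89, Trpa1 at 11.9 ± 1.23, Trpm2 at 5.55 ± 0.751, Trpc1 at 4.08 ± 0.316, Trpm8 at 2.17 ± 0.310, Trpv4 at 1.60 ± 0.232, Trpm3 at 0.818 ± 0.117 and Trpv3 at 0.0385 ± 0.0128. The ranges of neighbours in this order did not overlap, except those of Trpm8 and Trpv4. In paw the order began with Trpv4 at 9.07 ± 1.97 CPM per kb, then Trpv3 at 3.43 ± 0.938, Trpv2 at 1.84 ± 0.548 and Trpc1 at 0.916 ± 0.277. The other 5 were at or under 0.162 CPM per kb in paw on average. Trpv3 and Trpv2, and Trpv2 and Trpc1, overlapped, so only Trpv4 stood clear of its neighbour among the first 3. In cord Trpm2 led at 8.60 ± 0.420 CPM per kb (SD, n = 6), followed by Trpv2 at 6.63 ± 0.543, Trpc1 at 1.53 ± 0.229 and Trpm3 at 1.52 ± 0.138, the last pair overlapping, and Trpv4 at 0.874 ± 0.220.

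**Figure D1:**
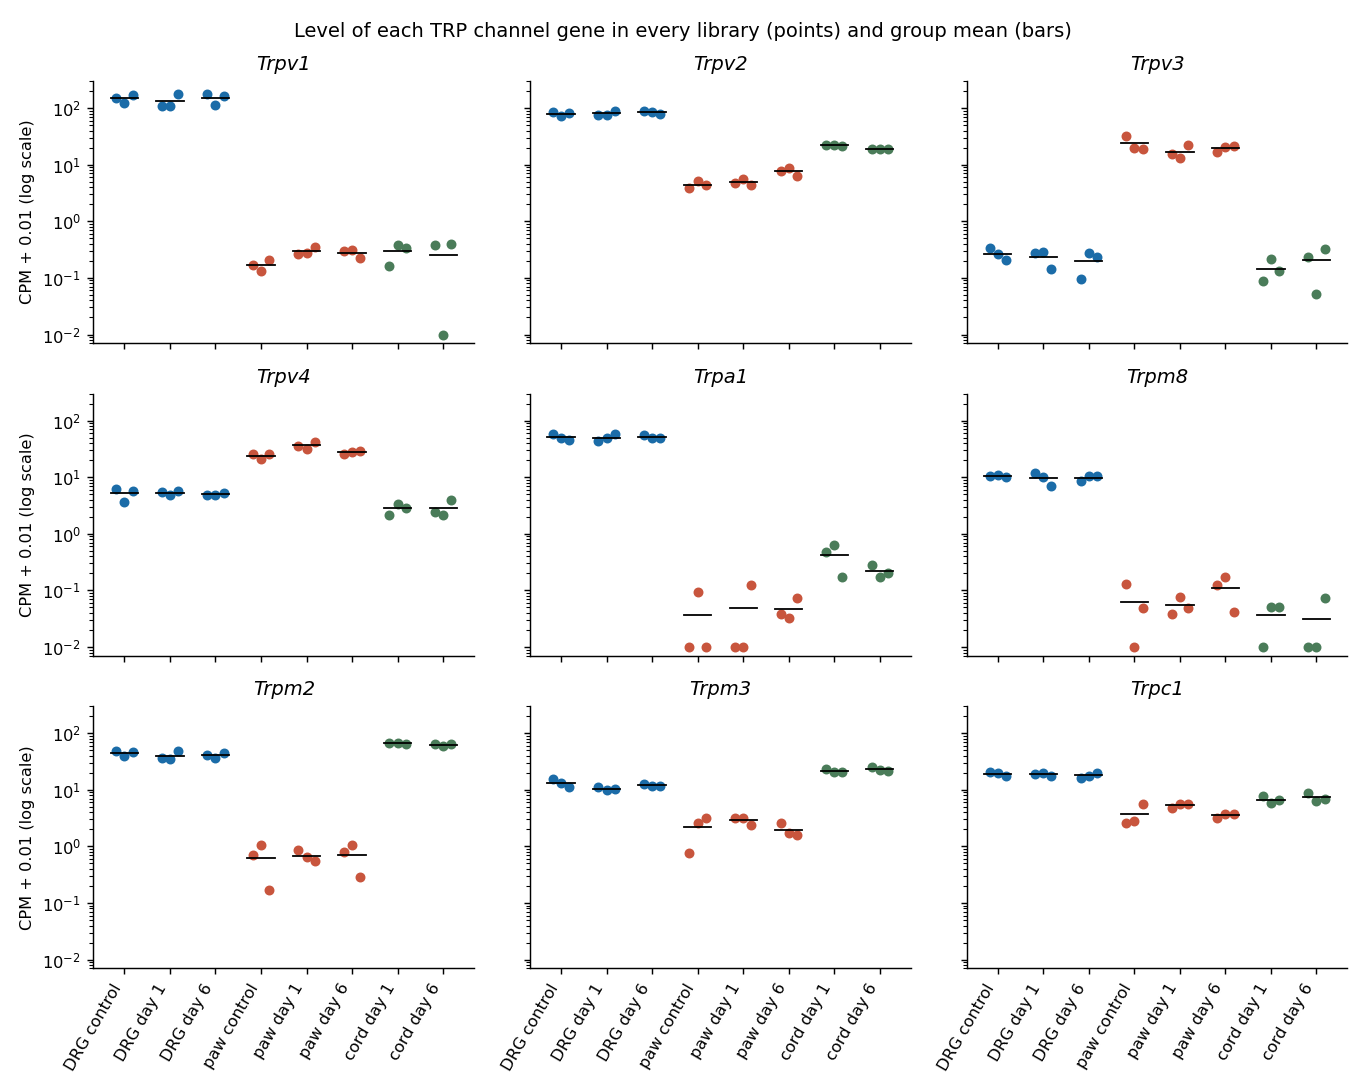
Level of each of the 9 TRP channel genes in every library, as CPM normalised within its tissue plus 0.01 on a log axis, with points for libraries and bars for group means of 3 libraries. Trpv1, Trpa1 and Trpm8 were at 7.01 CPM or more in every DRG library and at 0.613 CPM or less in every paw and cord library, while Trpv3 was at 13.0 CPM or more in paw and 0.329 CPM or less elsewhere.

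Trpv1, Trpa1 and Trpm8, which detect capsaicin and heat, electrophilic irritants, and menthol and cold, were DRG genes in these libraries. Trpv1 had 3220 to 6257 counts per DRG library, 3 to 13 per paw library and 0 to 9 per cord library. Trpa1 had 1248 to 1942 counts in DRG, 0 to 3 in paw and 3 to 15 in cord. Trpm8 had 206 to 364 counts in DRG, 0 to 7 in paw and 0 or 1 in cord. In these tissues every DRG library was above every paw and cord library for all 3 genes, and the share of all genes for which this held was not counted. From summed counts of the control groups, the DRG to paw ratio of Trpv1 was 884 (95% exact counting interval 506 to 1712), and that of Trpm8 was 186 (72.4 to 685). For Trpa1, with 4052 counts in control DRG and 2 in control paw, the ratio was 1809, with an interval of 500.5 to 14944. Against cord on day 1, the DRG ratio of Trpv1 was 479 (313 to 774), that of Trpa1 122 (85.8 to 180) and that of Trpm8 370 (102 to 3062, from 2 cord counts). These intervals cover counting error alone. The 3 genes passed the low-count filter of a fit over all tissues through DRG, so their calls there follow from that level.

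Trpv3, a warmth-gated channel of keratinocytes, had the opposite distribution to its neighbour Trpv1. It had 388 to 889 counts per paw library, 3 to 9 per DRG library and 1 to 5 per cord library. From summed control counts the DRG to paw ratio was 0.0101 (0.00614 to 0.0156), and from day-1 counts the paw to cord ratio was 130.0 (70.5 to 272). Trpv4, gated by osmotic swelling and lipids, was also highest in paw but was present in all 3 tissues. In the fit over all 24 libraries, in which edgeR called 80.7% of 16864 genes between control DRG and paw, control DRG held 0.205 times the paw level of Trpv4 (log2 difference -2.29 ± 0.21, SE, edgeR adjusted p = 3.28e-09). On day 1, where edgeR called 83.4% of genes between paw and cord, paw held 13.7 times the cord level of Trpv4 (log2 difference 3.78 ± 0.22, edgeR adjusted p = 3.09e-12). On day 6, where it called 83%, the ratio was 10.8 (edgeR adjusted p = 1.51e-11).

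The remaining members were each present in DRG and cord, with Trpm2 at only 4 to 46 counts per paw library. Trpv2, found in medium and large sensory neurons and in macrophages, was 17.3 times as high in control DRG as in control paw (log2 difference 4.11 ± 0.12, SE, edgeR adjusted p = 6.90e-17). On day 1 and day 6, where edgeR called 81% and 81.6% of genes between DRG and paw, the fold was 15.9 and 10.3. The same gene was 3.77 times as high in DRG as in cord on day 1, where edgeR called 64.2% of all genes (adjusted p = 8.70e-12), and 4.58 times on day 6, where it called 60.6% (adjusted p = 1.40e-12). Trpc1, a subunit of canonical TRP channels, was 4.99 times as high in control DRG as in control paw and 2.87 times as high in DRG as in cord on day 1 (edgeR adjusted p = 4.75e-09 and 2.46e-06). Trpm2, a channel opened by ADP-ribose under oxidative stress, and Trpm3, a heat-sensitive steroid-activated channel, were lower in DRG than in cord.

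Trpm2 was at 65.3 to 68.1 CPM in day-1 cord and 34.4 to 47.9 CPM in day-1 DRG, each normalised within its tissue. In the fit over all libraries the day-1 DRG level was 0.602 times the cord level (log2 difference -0.73 ± 0.25, SE, edgeR adjusted p = 0.0162), where edgeR called 64.2% of all genes. The groups did not overlap, and the share of all genes without overlap was not counted between tissues. That edgeR call was lost without DRG day-1 library 1 (adjusted p = 0.0538) or 2 (adjusted p = 0.0658), within a range of 3.45e-07 to 0.0658 over 14 alternatives. On day 6 the ratio was 0.676 and did not pass in edgeR (adjusted p = 0.0607), though 4 of 14 alternatives called it, with adjusted p of 0.0467 (upper-quartile normalization), 0.000102 (limma voom), 0.00671 (DESeq2) and 0.000578 (edgeR with only the groups compared), within a range of 0.000102 to 0.166. Trpm3 was at 0.505 times the cord level on day 1 and 0.535 times on day 6 (log2 differences -0.98 ± 0.25 and -0.90 ± 0.25, edgeR adjusted p = 0.00190 and 0.00396). Both calls were lost with the replicate number as a block in the fit (edgeR adjusted p = 0.0592 and 0.0866), though the labels do not say that these numbers pair libraries. In the 9 paw libraries Trpm2 was at 0.157 to 1.05 CPM and Trpm3 at 0.765 to 3.22 CPM, and control paw held less of both than control DRG (69.1-fold and 5.86-fold, edgeR adjusted p = 3.27e-12 and 5.10e-08). Against cord, paw held 0.0108 times the level of Trpm2 on day 1 and 0.0128 times on day 6, 0.147 and 0.0916 times that of Trpm3, and 0.237 and 0.443 times that of Trpv2, all past the edgeR threshold. For Trpc1 the ratio was 0.841 on day 1, which did not pass (edgeR adjusted p = 0.270), and 0.533 on day 6 (adjusted p = 0.000598).

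The comparisons within DRG asked whether TRP channel RNA differed in the ganglia of the injected side after the agonist. No member passed the edgeR threshold in DRG. Of the 8 members tested, with Trpv3 below the filter, 0 were called on day 1, when 0.168% of 15461 genes were called, and 0 on day 6, when 0% were. DESeq2 called 0 members in either comparison as well. At an unadjusted p under 0.05, 1 member (Trpm3) was found on day 1 and 0 on day 6, against 7.4% and 3.6% of all genes. Groups without overlap were found for 0 members on either day, against 13.2% and 8.88% of all genes. Between day 6 and day 1, 0 members were called by edgeR or DESeq2 and 0 had an unadjusted p under 0.05, and edgeR called 0.103% of all genes. The median log2 difference over the 8 members was -0.09 on day 1 and -0.06 on day 6, with medians over all genes of -0.0011 and 0.00011.

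**Figure D2:**
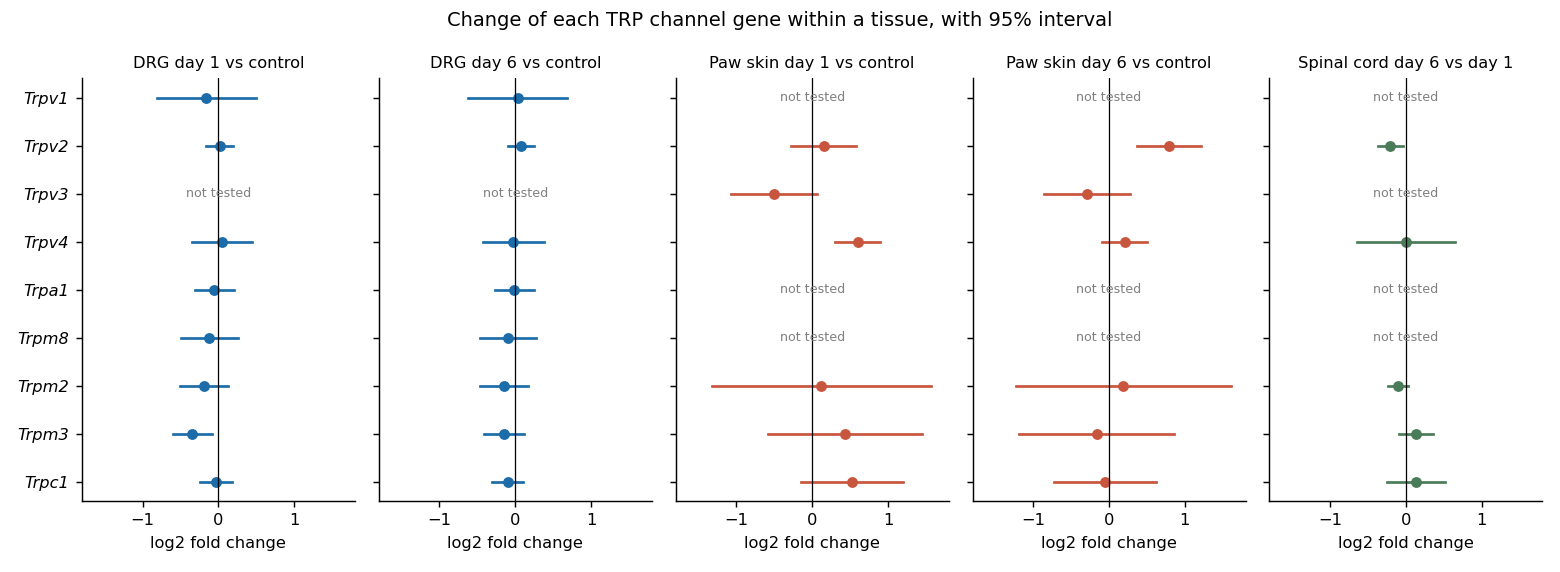
Difference between groups within each tissue for each of the 9 genes, as log2 fold change (points) with the 95% interval of the edgeR fit (lines), where "not tested" marks genes below the low-count filter. In DRG the intervals are narrowest for Trpv2, Trpc1 and Trpa1 and widest for Trpv1, and in paw the intervals of Trpv4 on day 1 and of Trpv2 on day 6 lie above 0.

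Trpv1 was at 151, 122 and 171 CPM in the DRG controls, 109, 109.6 and 180.0 CPM on day 1, and 179.6, 112 and 162 CPM on day 6. The 9 libraries fell into 2 sets that ran across the groups. Control 2, day-1 libraries 1 and 2 and day-6 library 2 lay at 109 to 122 CPM, and the other 5 lay at 151 to 180.0 CPM. The day-1 difference from control was -0.16 ± 0.27 on the log2 scale (SE, 95% interval -0.81 to 0.49, edgeR adjusted p = 0.963), and the day-6 difference was 0.03 ± 0.27 (-0.62 to 0.68, adjusted p = 0.996). These intervals are the widest of the 8 members tested in DRG. Leaving out single libraries moved the day-1 difference between -0.45 and -0.04, and the day-6 difference between -0.12 and 0.21, which includes both signs.

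The genes whose log2 CPM was most like that of Trpv1 over the 9 DRG libraries, among 14081 genes tested there after leaving out provisional gene models, were Chrna3, Mrap2 and Mgat5b, with Pearson's r of 0.991, 0.985 and 0.985. Points of this comparison share library and depth, and it is a description. Chrna3, a nicotinic acetylcholine receptor subunit, was at 24.0, 15.0 and 35.9 CPM in controls, 11.1, 10.5 and 39.3 CPM on day 1, and 37.7, 10.3 and 36.3 CPM on day 6. Chrna3 was low in the same 4 libraries as Trpv1, which follows from its choice by likeness to Trpv1 over these libraries. A list of 28 sensory neuron markers, Pvalb left out, summed to 17493 to 20408 CPM over all DRG libraries, and all 28 were at 1 CPM or more in each. Skeletal muscle genes summed to 104 to 7895 CPM in DRG. Of the 28, Tac1 and Gfra3, picked after their values were seen, were low in the same 4 libraries as Trpv1, at 167 to 198 against 234 to 280 CPM and at 49.1 to 54.4 against 60.8 to 73.0 CPM. Every other marker of the 28 overlapped between these sets of libraries, among them Calca (866 to 1077 against 1022 to 1237 CPM) and Mrgprd (112 to 119 against 82.3 to 129 CPM). Over the 9 libraries, which share depth between genes, the mean log2 level of the whole list with Pvalb had r = 0.89 with Trpv1. Pvalb is also among the skeletal muscle genes, so this mean, and the covariate made from it, may carry some muscle RNA, which was not tested. For the other members tested in DRG r was 0.81 (Trpv2), 0.80 (Trpm2), 0.75 (Trpa1), 0.46 (Trpv4), 0.32 (Trpm3), -0.53 (Trpc1) and -0.71 (Trpm8). With the mean of the list as a covariate the day-1 difference of Trpv1 was 0.0014, against -0.16 without it, which had not passed the edgeR threshold. The part of sensory neurons in the Trpv1 values was not tested.

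**Figure D3:**
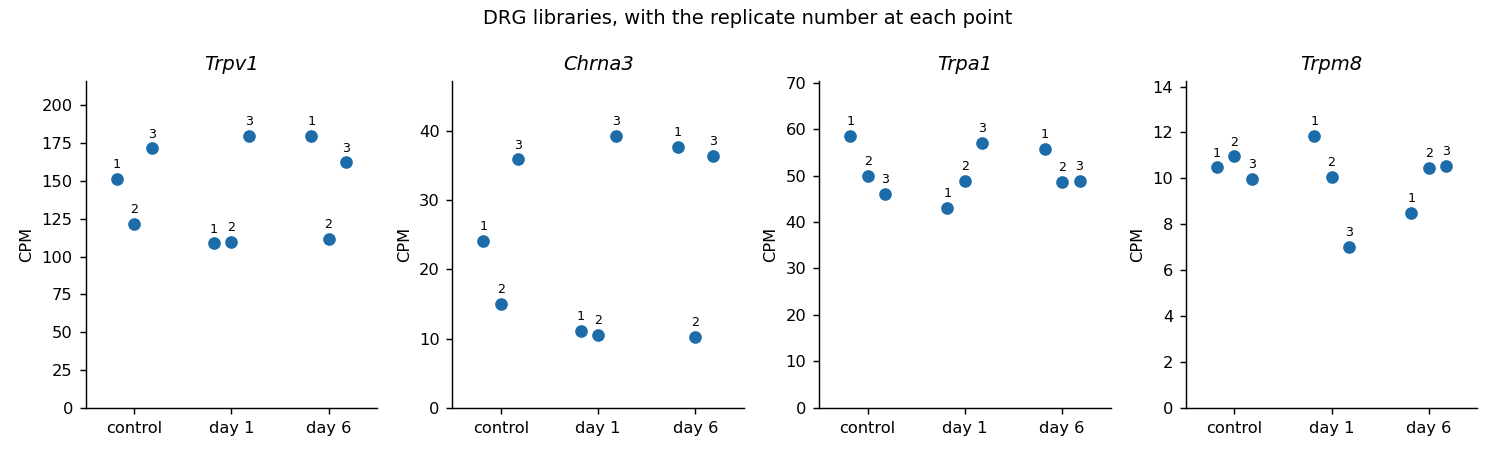
Level in CPM of Trpv1, of Chrna3 (the gene most like it), of Trpa1 and of Trpm8 in each DRG library, with the replicate number at each point and a linear axis from 0. Trpv1 and Chrna3 were lowest in control 2, day-1 libraries 1 and 2 and day-6 library 2, and Trpa1 and Trpm8 overlapped between all groups.

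Trpa1, expressed with Trpv1 in a class of nociceptors, had a coefficient of variation of 10.3% over the 9 DRG libraries, against 21.5% for Trpv1. Its level was 58.6, 49.9 and 46.1 CPM in the DRG controls, 43.1, 48.8 and 57.0 CPM on day 1 and 55.7, 48.7 and 48.8 CPM on day 6. All groups overlapped. The log2 difference from control was -0.05 ± 0.11 on day 1 (95% interval -0.31 to 0.20, edgeR adjusted p = 0.973) and -0.01 ± 0.11 on day 6 (-0.27 to 0.25, adjusted p = 0.996). Most like it over the DRG libraries were Tmem200a, Rgs4 and Cdk5r1 (r = 0.944, 0.937 and 0.926).

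Trpm8, the cold receptor of a small class of sensory neurons, was at 10.5, 11.0 and 9.98 CPM in the DRG controls, 11.9, 10.1 and 7.01 CPM on day 1, and 8.50, 10.5 and 10.5 CPM on day 6. Day-1 library 3 was the lowest, and the groups overlapped. The log2 differences were -0.12 ± 0.17 on day 1 and -0.09 ± 0.17 on day 6 (95% intervals -0.49 to 0.25 and -0.46 to 0.28, edgeR adjusted p = 0.952 and 0.995). Without day-1 library 3 the day-1 difference was 0.06. Zranb1, Ralgps1 and Ube3c were most like it (r = 0.965, 0.943 and 0.939).

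Trpm3 was the member with the smallest p in DRG. It was at 15.5, 13.3 and 11.0 CPM in controls, 11.1, 9.85 and 10.4 CPM on day 1, and 12.5, 11.7 and 11.5 CPM on day 6. Day-1 library 1 lay just above control 3, so control and day 1 overlapped, while every day-6 library was above every day-1 library. The day-1 level was 0.789 times the control level (log2 difference -0.34 ± 0.12, SE, 95% interval -0.60 to -0.083, edgeR unadjusted p = 0.0143, adjusted p = 0.505). Without control 1, the library with many reads that matched no annotated feature, the difference was -0.23 (adjusted p = 0.944). The day-6 to day-1 difference of 0.19 ± 0.12 had an adjusted p of 0.800, and 12.5% of all genes had groups without overlap in that comparison. Polr3f, Pde3b and Rpl38 were most like Trpm3 (r = 0.961, 0.948 and 0.942). Rpl38 is a ribosomal protein gene with near-identical copies, so its count, a mean of 0.705 CPM, is uncertain.

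Trpm2 was at 49.0, 38.8 and 47.2 CPM in the DRG controls, 35.8, 34.4 and 47.9 CPM on day 1 and 40.8, 36.7 and 44.5 CPM on day 6. Its log2 differences from control were -0.19 ± 0.14 on day 1 and -0.15 ± 0.14 on day 6 (95% intervals -0.51 to 0.12 and -0.46 to 0.17), with overlapping groups. Plekhb2, Sema4d and Lrrc3 were most like it (r = 0.947, 0.946 and 0.944).

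Trpv2 and Trpc1 had the narrowest intervals in DRG. Trpv2 was at 72.6 to 85.7 CPM in controls, 75.7 to 89.5 on day 1 and 79.2 to 88.0 on day 6, with log2 differences of 0.02 ± 0.08 and 0.07 ± 0.08 (95% intervals -0.16 to 0.19 and -0.10 to 0.25). Trpc1 was at 17.3 to 20.3 CPM in controls, 17.5 to 20.1 on day 1 and 16.3 to 19.6 on day 6, with differences of -0.03 ± 0.09 and -0.10 ± 0.09 (-0.24 to 0.17 and -0.31 to 0.10). Trpv4 was at 3.60 to 6.25 CPM in controls, 4.74 to 5.68 on day 1 and 4.92 to 5.28 on day 6, and its differences were 0.05 ± 0.18 and -0.03 ± 0.18 (-0.35 to 0.45 and -0.43 to 0.37). Groups of all 3 genes overlapped. The genes most like them were G6pdx and Mea1 for Trpv2 (r = 0.984 and 0.977), Utrn, Rnf111 and Sdk2 for Trpc1 (r = 0.969, 0.968 and 0.962) and Tuft1, Ccdc109a and Slco4a1 for Trpv4 (r = 0.907, 0.893 and 0.892). Trpv3 had 3 to 9 counts in every DRG library and was not tested there.

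In paw skin, 0 of the 6 members tested passed the edgeR threshold on day 1, when 0.00654% of 15287 genes were called, and 0 on day 6, when 0.706% were. DESeq2 called 1 member on each day, and 209 and 509 genes in all. These were Trpv4 on day 1 and Trpv2 on day 6, and each was also the 1 member with an unadjusted edgeR p under 0.05, against 10.6% and 9.74% of all genes. Between day 6 and day 1, edgeR called 0 members and 1.03% of all genes, 2 members (Trpv2 and Trpv4) had an unadjusted p under 0.05, against 14% of all genes, and DESeq2 called 1 member and 737 genes in all.

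Trpv4 was at 25.7, 20.8 and 25.3 CPM in the paw controls, 35.1, 31.8 and 42.2 CPM on day 1 and 25.8, 27.5 and 29.5 CPM on day 6. Every day-1 library was above every control and day-6 library. The day-1 level was 1.52 times the control level (log2 difference 0.60 ± 0.13, SE, 95% interval 0.31 to 0.90, unadjusted p = 0.00135, edgeR adjusted p = 0.348). With DESeq2 the difference was 0.61 and was called (adjusted p = 0.0129). Adjusted p ranged from 0.0129 to 0.799 over 15 alternatives, in all of which the difference was positive. Groups without overlap occurred in 15% of all genes in this comparison.

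On day 6 the Trpv4 level was closer to control, at 1.15 times (log2 difference 0.20 ± 0.13, edgeR adjusted p = 0.716), with the lowest day-6 library just above the highest control. Groups without overlap made up 14.1% of all genes in that comparison. Every day-6 library was lower than every day-1 library (log2 difference -0.40 ± 0.13, edgeR unadjusted p = 0.0140, adjusted p = 0.227), and 22.2% of all genes did not overlap there. The genes most like Trpv4 over the 9 paw libraries were Sele, Bud13 and Hjurp (r = 0.937, 0.925 and 0.922). Sele, the endothelial adhesion molecule E-selectin, was at 16.6 to 22.8 CPM in controls, 41.1 to 70.2 CPM on day 1 and 20.2 to 24.8 CPM on day 6. The sum of 12 endothelial markers was 378 to 718 CPM in controls and 541 to 711 CPM on day 1, with all 12 at 1 CPM or more in every paw library. The sum of 24 keratinocyte markers was 97860 to 160981 CPM in controls and 83252 to 103831 CPM on day 1. Their part in the Trpv4 values was not tested. With the skeletal muscle genes as a covariate the Trpv4 difference on day 1 was 0.68.

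Trpv2 was at 3.83, 5.10 and 4.32 CPM in the paw controls, 4.77, 5.57 and 4.36 CPM on day 1 and 7.84, 8.77 and 6.37 CPM on day 6. Every day-6 library was above every control and day-1 library, and control and day 1 overlapped. Groups without overlap made up 14.1% of all genes between day 6 and control and 22.2% between day 6 and day 1. The day-6 level was 1.73 times the control level (log2 difference 0.79 ± 0.19, SE, 95% interval 0.37 to 1.22, unadjusted p = 0.00216, edgeR adjusted p = 0.123). DESeq2 called it, with a difference of 0.81 (adjusted p = 0.00396), and adjusted p ranged from 0.00396 to 0.374 over 15 alternatives. Against day 1 the day-6 level was 1.56 times as high (0.64 ± 0.18, edgeR adjusted p = 0.173, DESeq2 adjusted p = 0.0290, range 0.0290 to 0.553). On day 1 Trpv2 was at 0.15 ± 0.19 from control (adjusted p = 0.719).

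Macrophage and monocyte markers were high in the same paw libraries as Trpv2. All 20 of these genes had positive log2 differences on day 6, with a median of 1.36 against -0.01 over all genes. Of the 20, 12 passed the edgeR threshold, against 0.706% of all genes. Without paw control 1 edgeR called 6, and without control 2 or 3 or day-6 library 1 or 2 it called 0. With only the groups compared it also called 0, while all 20 differences stayed positive in each of these fits. Their summed level was 493 to 683 CPM in controls, 451 to 718 CPM on day 1 and 1318 to 2096 CPM on day 6, and 19 or all 20 genes were at 1 CPM or more in each paw library. The part of these cells in the Trpv2 values was not tested.

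**Figure D4:**
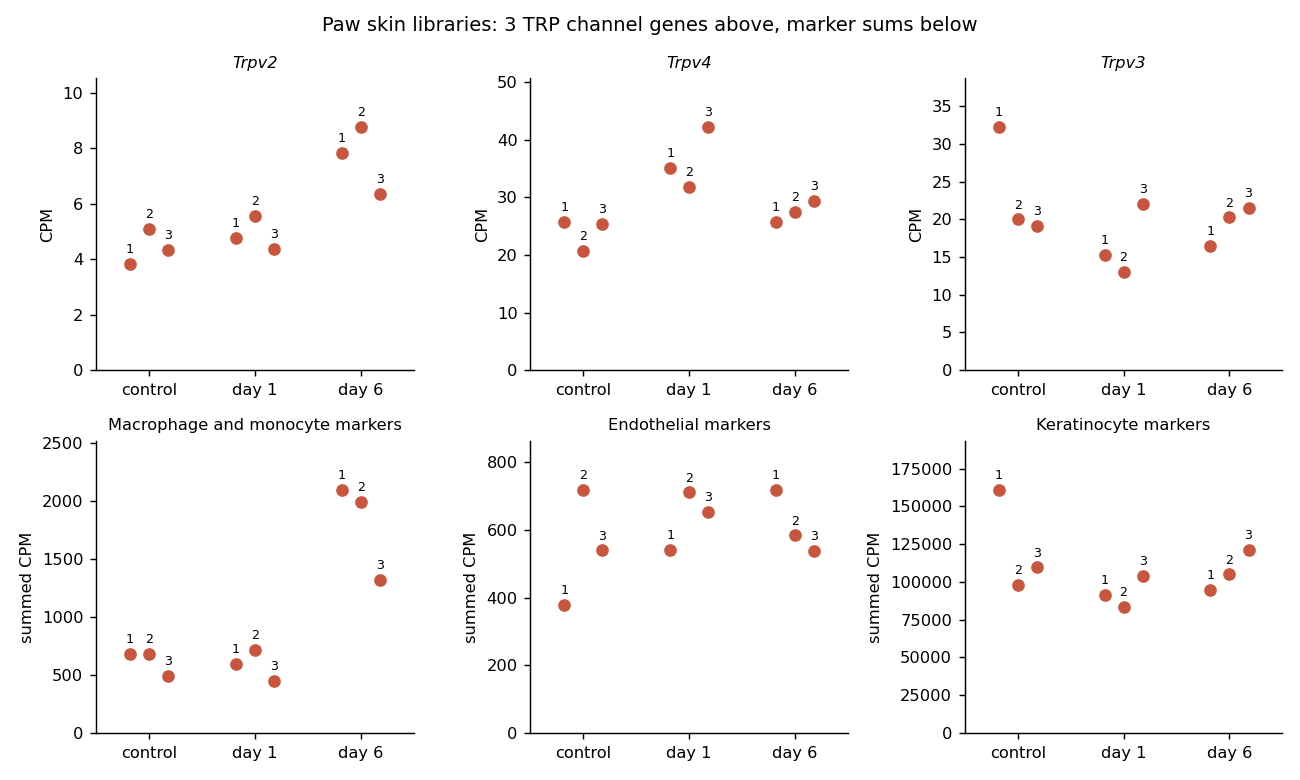
Paw skin libraries, with the level of Trpv2, Trpv4 and Trpv3 in CPM above and the summed CPM of macrophage and monocyte, endothelial and keratinocyte markers below, all on linear axes from 0 with the replicate number at each point. Trpv2 and the macrophage sum were higher in all 3 day-6 libraries than in any other, Trpv4 was highest in the 3 day-1 libraries, and Trpv3 and the keratinocyte sum were both highest in control 1.

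Trpv3 was at 32.2, 20.0 and 19.1 CPM in the paw controls, 15.3, 13.0 and 22.1 CPM on day 1 and 16.5, 20.2 and 21.5 CPM on day 6. Control 1 was the highest, and all groups overlapped. Its log2 difference was -0.50 ± 0.25 on day 1 and -0.29 ± 0.25 on day 6 (95% intervals -1.07 to 0.068 and -0.86 to 0.27, edgeR adjusted p = 0.497 and 0.822). Without control 1 the differences were -0.20 and 0.02. The keratinocyte sum was likewise highest in control 1 and lowest in day-1 libraries 2 and 1. Surf6, Hat1 and Klk11, the last a kallikrein protease gene of skin, were most like Trpv3 (r = 0.992, 0.983 and 0.981).

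The other members were low in paw. Trpc1 was at 2.58, 2.76 and 5.70 CPM in controls, 4.72, 5.67 and 5.55 on day 1 and 3.12, 3.76 and 3.76 on day 6. Every day-6 library lay below every day-1 library (log2 difference -0.58 ± 0.30, edgeR adjusted p = 0.414), as 22.2% of all genes did not overlap there, and both groups overlapped the controls. Trpm3 and Trpm2 had 19 to 113 and 4 to 46 counts per library, all their groups overlapped, and their 95% intervals on day 1 reached from -0.59 to 1.45 and from -1.32 to 1.56. Trpv1 was below the filter, with 4, 3 and 5 counts in controls, 9, 8 and 9 on day 1 and 10, 13 and 7 on day 6. In CPM its agonist libraries lay above the controls, at 0.217 to 0.344 against 0.123 to 0.196, and this was not tested at such counts. Among the genes tested in paw, 15% on day 1 and 14.1% on day 6 had groups that did not overlap control. Trpa1 and Trpm8 had at most 3 and 7 counts.

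In spinal cord, 0 of the 5 members tested passed the edgeR threshold between day 6 and day 1, when 0% of 15096 genes were called. DESeq2 called 0 members, and 1 (Trpv2) had an unadjusted p under 0.05, against 9.7% of all genes. Trpv2 was at 22.2, 22.3 and 21.1 CPM on day 1 and 18.7, 19.0 and 19.2 CPM on day 6, without overlap. The day-6 level was 0.865 times the day-1 level (log2 difference -0.21 ± 0.07, SE, 95% interval -0.37 to -0.045, edgeR unadjusted p = 0.0188, adjusted p = 0.480). Trpm2, known from microglia as well as neurons, was at 68.1, 66.9 and 65.3 CPM on day 1 and 63.8, 59.1 and 63.9 CPM on day 6, also without overlap (-0.10 ± 0.06, adjusted p = 0.571). In this comparison 16.4% of all genes had groups without overlap. Trpm3 was at 20.2 to 22.8 CPM and then 21.3 to 25.5 CPM, and Trpc1 and Trpv4 overlapped too, with log2 differences of 0.13 ± 0.10, 0.13 ± 0.17 and -0.0029 ± 0.28. Trpv1, Trpv3, Trpa1 and Trpm8 had 0 to 15 counts per cord library and were not tested.

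The response of each member was compared between tissues with an interaction term. For the DRG response minus the paw response, 0 members were called by edgeR on day 1, when 0% of 16461 genes were, and 0 on day 6, when 0.498% were. DESeq2 called 0 and 1 members, and 59 and 234 genes in all. At an unadjusted p under 0.05 edgeR found 1 member on each day, against 9.68% and 7.73% of all genes. Trpv4 on day 1 had a difference of -0.55 ± 0.23 on the log2 scale (edgeR unadjusted p = 0.0319, adjusted p = 0.470). Trpv2 on day 6 had a difference of -0.72 ± 0.18 (95% interval -1.10 to -0.33, unadjusted p = 0.00120, edgeR adjusted p = 0.122). DESeq2 called this difference (-0.70, adjusted p = 0.0236), as did edgeR without paw day-6 library 3 (-0.83, adjusted p = 0.0333), within a range of 0.0236 to 0.435 over 19 alternatives. Between DRG and cord, 0 members differed in their change from day 1 to day 6 by edgeR or DESeq2, and edgeR called 0.00623% of genes. Trpv2 had the smallest p there (0.29 ± 0.11, unadjusted p = 0.0174, adjusted p = 0.442).

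The other 19 TRP genes of the files were read in the same fits. Of these, 12 were tested in DRG, 12 in paw and 14 in cord. EdgeR called 0 within any tissue, against 0% to 1.03% of all genes in a comparison. At an unadjusted p under 0.05 there were 0 to 3 in a comparison, against 3.6% to 14% of all genes. The 3 were Trpv6, Trpm6 and Pkd2l2 of the 12 tested in paw on day 1, where 10.6% of all genes had such a p. The median log2 difference over the tested genes was 0.06 in DRG and 0.09 in paw on day 1, and 0.0078 and -0.00018 on day 6. In paw on day 1, Trpv6, an epithelial calcium channel, was at 6.32 ± 1.13 against 10.1 ± 0.847 CPM in controls (log2 difference -0.67 ± 0.16, edgeR adjusted p = 0.348), and Trpm6, a magnesium channel, at 2.00 ± 0.380 against 1.26 ± 0.0946 CPM (0.67 ± 0.24, adjusted p = 0.420). In cord Pkd2l1, the gene of a channel of neurons that contact cerebrospinal fluid, was at 59.6 ± 12.4 CPM on day 6 and 40.1 ± 3.26 CPM on day 1 (0.57 ± 0.15, adjusted p = 0.463).

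Of 35 genes whose products bind, sensitize or signal to TRP channels, 33 were tested in DRG, 33 in paw and 29 in cord. EdgeR called 1 over all comparisons within a tissue, in paw day 6 against control, where it called 0.706% of all genes. In the other comparisons within a tissue it called 0% to 1.03% of all genes. Alox5, which makes leukotriene precursors, rose in paw on day 6, from 12.5 ± 1.05 to 26.5 ± 4.62 CPM (2.12-fold, log2 difference 1.08 ± 0.15, SE, edgeR adjusted p = 0.0255). The call was lost without paw control 2 or 3 or day-6 library 1 or 2 (edgeR adjusted p of 0.0909, 0.0996, 0.128 and 0.105), with differences of 0.99 to 1.08, and with only the groups compared (0.0762). The macrophage and monocyte sum was higher in the same 3 day-6 libraries, and its part in the Alox5 values was not tested. Hrh1, the histamine H1 receptor, was at 5.51 ± 0.174 CPM in DRG on day 1 and 5.42 ± 0.479 on day 6 against 3.97 ± 0.385 in controls (log2 differences 0.47 ± 0.13 and 0.45 ± 0.13, edgeR adjusted p = 0.299 and 0.995). In paw on day 1 Tacr1, the substance P receptor, was at 6.76 ± 3.35 against 13.5 ± 2.97 CPM and Artn, a ligand of nociceptors, at 0.812 ± 0.0754 against 2.13 ± 1.24 CPM (edgeR adjusted p = 0.417 and 0.427).

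Among 25 other channels of sensory transduction, 24 were tested in DRG, 20 in paw and 20 in cord. EdgeR called 0 of them in any comparison within a tissue, against 0% to 1.03% of all genes. At an unadjusted p under 0.05 there were 0 to 5 in a comparison, against 3.6% to 14% of all genes. On day 1 the smallest p in paw belonged to Kcnk2, a mechanosensitive potassium channel, at 4.92 ± 0.264 CPM against 2.95 ± 0.226 CPM in controls (log2 difference 0.74 ± 0.16, edgeR adjusted p = 0.348). On day 6 P2rx4, an ATP-gated channel also known from macrophages and microglia, was at 31.5 ± 2.76 against 23.7 ± 2.45 CPM in control paw (0.41 ± 0.11, adjusted p = 0.178).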

How the data were processed

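Polyadenylated RNA of the 24 libraries was sequenced as 50-base single reads from stranded libraries, per the labels' protocols. Per the submitters' processing notes, bcl2fastq, TopHat2, HTSeq and build mm9 were used; versions, the annotation and the strand setting are not given in the sources used here. The authors deposited whole-number counts per gene, 1 table per library, with 22609 genes and 5 summary lines that were removed. Columns of other samples numbered 0, and 0 of 24 replicate pairs were identical.

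The members and gene lists were chosen with earlier results of these data known. Counts were normalised by TMM and tested within each tissue with edgeR 4.0.16 (robust quasi-likelihood F test, filterByExpr with a minimum count of 10, R 4.3.3). P-values were two-sided and Benjamini-Hochberg adjusted over all genes tested, with a threshold of 0.05. Contrasts between tissues used 1 fit over 24 libraries, and differences in response used interaction terms. Counting intervals are 95% exact conditional intervals. Alternatives were other normalizations and filters, DESeq2 (1.42.0), limma voom (3.58.1), a block for replicate number, covariates, only the groups compared, and leaving out each library.

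The 9 members are named in the comparisons within a tissue and, between tissues, where the text gives them. From the other lists, at most 4 genes past the threshold or, where none passed, at most 2 with the smallest p were named, plus the 3 genes most like each member (Pearson's r of log2 CPM, prior count 2) and Relb and Nfkb2. Some genes that this rule names are not reported here. Older symbols were used for Piezo1, Piezo2, Asic1, Asic2, Asic3 and Adgre1, and Flg and Mcpt5 were unmatched. Exon lengths came from GENCODE M21 (GRCm38) and promoter windows from RefSeq (GRCm38.p6), while the counts were made on mm9. No coordinates were converted. Replicate numbers are shared between groups, and the labels do not say that they pair libraries, so they were not treated as pairs.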

Additional observations from a re-analysis of the deposited data

How the results depend on the processing

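With 3 libraries a group, few all-gene calls were made and their number moved with the tool. EdgeR, limma voom and DESeq2 called 26, 36 and 131 genes in DRG on day 1, 1, 1 and 209 in paw on day 1, 108, 153 and 509 in paw on day 6, 0, 0 and 64 in cord, 16, 20 and 106 in DRG day 6 against day 1, 157, 705 and 737 in paw day 6 against day 1, 0, 0 and 59 for the DRG minus paw response on day 1, 82, 69 and 234 on day 6, and 1, 68 and 43 for the DRG minus cord change. With only the groups compared, 11 genes were called in DRG on day 1 and 0 in paw on day 6. Leaving out single libraries gave 8 (control 2) to 35 (day-1 library 3) in DRG on day 1, 0 (control 2 or 3, day-6 library 1 or 2) to 155 (day-6 library 3) in paw on day 6, and 0 to 818 (day-6 library 2) in cord. The count of TRP members called was 0 in each comparison within a tissue and became 1 with DESeq2 for paw day 1 against control, paw day 6 against control, paw day 6 against day 1 and the DRG minus paw response on day 6, where leaving out single libraries gave 0 to 1. Trpv4 on day 1 and Trpv2 on day 6 in paw kept their direction under all 15 alternatives. Between tissues, members with fewer than 10 counts in a tissue are limited by depth. The cause of the changes was not tested.

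Same-numbered libraries did not all deviate together (correlations of -0.69 to 0.24 in DRG, -0.64 to 0.32 in paw and -0.60 to -0.18 in cord). With the replicate number as a block, Trpc1 in paw on day 6 was at 0.0095, Trpm2 in paw day 6 against day 1 at -0.099 and the Trpm3 difference between DRG and paw responses on day 6 at -0.011, each with its sign turned, and 0 members were called within a tissue. The block also ended the DRG to cord calls of Trpm3 on day 1 and day 6 (-0.97 and -0.89, edgeR adjusted p = 0.0592 and 0.0866). It brought Trpc1 between paw and cord on day 1 past the threshold (-0.73, edgeR adjusted p = 0.0137). It changed no other call of a member that the report gives.

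Other signs that turned belonged to members that did not pass the threshold, as log2 differences. A skeletal muscle covariate gave -0.010 for Trpv2 in DRG day 1 against control, -0.034 for Trpv1 in DRG day 6 against control, 0.0091 for Trpm8 in DRG day 6 against control, -0.016 for Trpa1 in DRG day 6 against day 1 and -0.0064 for Trpm3 in paw day 1 against control. A sensory neuron covariate gave 0.0014 for Trpv1 in DRG day 1 against control, 0.017 for Trpa1 in DRG day 1 against control, 0.017 for Trpv4 in DRG day 6 against control, 0.011 for Trpa1 in DRG day 6 against control, -0.0057 for Trpa1 in DRG day 6 against day 1 and -0.0022 for Trpm2 in DRG day 6 against day 1. Upper-quartile normalization gave 0.0055 for Trpa1 in DRG day 6 against control and -0.018 for Trpm3 in the DRG minus paw response on day 6. Limma voom gave -0.072 for Trpv1 in DRG day 6 against control, 0.055 for Trpv4 in DRG day 6 against control and 0.053 for Trpv4 in cord day 6 against day 1. A filter of 1 CPM in 3 libraries gave 0.0014 for Trpv4 in cord day 6 against day 1.

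Leaving out single libraries turned further signs. In DRG day 1 against control the difference ran from -0.17 to 0.041 for Trpa1, -0.10 to 0.0088 for Trpc1, -0.069 to 0.066 for Trpv2, -0.16 to 0.20 for Trpv4 and -0.30 to 0.061 for Trpm8. For DRG day 6 against control the range was -0.23 to 0.13 for Trpv4, -0.089 to 0.085 for Trpa1, -0.12 to 0.21 for Trpv1 and -0.15 to 0.00084 for Trpm8. In DRG day 6 against day 1 the difference ran from -0.051 to 0.15 for Trpa1, -0.042 to 0.21 for Trpm2 and -0.16 to 0.20 for Trpm8. For paw day 1 against control the range was -0.34 to 0.68 for Trpm2. In paw day 6 against control the difference ran from -0.43 to 0.022 for Trpv3, -0.27 to 0.75 for Trpm2, -0.54 to 0.22 for Trpm3 and -0.22 to 0.41 for Trpc1. For paw day 6 against day 1 the range was -0.35 to 0.43 for Trpm2. In cord day 6 against day 1 the difference ran from -0.29 to 0.16 for Trpv4 and -0.020 to 0.23 for Trpc1. For the DRG minus paw response on day 1 the range was -0.89 to 0.14 for Trpm2. In the DRG minus paw response on day 6 the difference ran from -0.37 to 0.38 for Trpm3, -0.51 to 0.13 for Trpc1 and -0.92 to 0.11 for Trpm2. For the DRG minus cord change the range was -0.22 to 0.23 for Trpv4.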
